A study of Mus musculus with 2 samples.

Results

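Mouse chromosome 7 carries 46 odorant receptor (Olfr) genes in 5 small runs to either side of its main receptor region, and their transcript levels in the olfactory epithelium are described here. The 46 are all chromosome 7 entries of the deposited table whose locus starts before the gene Olfr543, at position 109625287 of build mm9, or after Olfr519, at position 116036975. They make up 4.14% of the table, which has 1112 entries. The rule uses position only and no measured value.

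RNA was sequenced from the olfactory epithelium of adult C57BL/6 mice, in 2 samples that form 1 group. Both samples are titled and genotyped as wild type, but the description of the second reads 3bko where that of the first reads wt, and no label used here explains 3bko. The table gives 1 value per entry, in FPKM (sequenced fragments divided by gene model length and by library size), and does not tie it to either sample. Every row of the table names both wt and 3bko in its sample columns, so neither the FPKM nor the status OK or NOTEST can be assigned to 1 of them, and the values may include a sample that is not wild type. Each value below is thus a single deposited number without a replicate spread. The depth is unknown, differences between genes could not be set against replicate error, and no test was made. None of 12 marker genes of olfactory neurons, supporting cells and basal cells is in the table, which holds receptor genes only, so the tissue label could not be checked.

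Odorant receptors are G protein-coupled receptors that sit on the cilia of olfactory sensory neurons and bind odorants. A mature neuron usually transcribes a single receptor gene from a single allele, and a choice among the receptor genes is made as the neuron matures. Mouse receptors fall into class I, which is related to the receptors of fish, and the larger class II, and the MOR names group them into families by sequence. In RNA from whole epithelium, fewer neurons with a receptor and less RNA in each such neuron cannot be told apart.

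All 46 members are class II receptors by their MOR family, and all 46 have an open reading frame in GENCODE M21. With neighbours less than 1 Mb apart placed together, they form 5 runs. With a limit of 2 Mb they would form 4, since the Olfr291 and Olfr290 pair would join the middle run. The proximal run holds 8 genes between 6.39 and 6.52 Mb (mm9). Olfr291 and Olfr290 form a pair at 92.0 to 92.1 Mb. The middle run holds 15 genes from 93.42 to 93.84 Mb. Olfr520 and Olfr521 form a second pair at 106.9 Mb. The distal run holds 19 genes from 147.35 to 147.89 Mb. The genes lie close together, with a median of 13.4 kb between successive starts in the proximal run, 26.3 kb in the middle run and 24.7 kb in the distal run.

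The receptor genes nearest to the limits of the rule were Olfr521, inside, at an FPKM of 0.189, and the class I gene Olfr543, outside, at 0.130. At the upper limit they were Olfr522, inside, at 2.02, and Olfr519, outside, at 0.0275.

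A short read from a stretch that genes share cannot be assigned to a single gene, so the sequences bear on how the values are read. Coding stretches are shown for 3 sets of close relatives whose levels are compared below. In each set they are the 60 bases with the most differing positions among stretches without gaps. The sequences are those of GENCODE M21 (GRCm38), 5′ to 3′, and capitals mark the positions at which the genes of the set differ. The first set is MOR252, which holds the 2 highest members and differs at 12 of 60 positions.
Olfr533, chr7:140466207-140466266, plus strand: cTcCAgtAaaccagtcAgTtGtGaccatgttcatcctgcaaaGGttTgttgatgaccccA
Olfr536, chr7:140504394-140504453, minus strand: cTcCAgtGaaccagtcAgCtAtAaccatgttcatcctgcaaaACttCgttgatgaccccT
Olfr530, chr7:140373545-140373604, minus strand: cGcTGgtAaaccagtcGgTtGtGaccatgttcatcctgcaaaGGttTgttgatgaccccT
The second set is a pair of MOR220 genes of the middle run, which differ at 11 of 60 positions.
Olfr297, chr7:86527480-86527539, plus strand: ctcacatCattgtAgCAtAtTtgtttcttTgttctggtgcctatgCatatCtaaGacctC
Olfr295, chr7:86585998-86586057, plus strand: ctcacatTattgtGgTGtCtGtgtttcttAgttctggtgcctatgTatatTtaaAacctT
The third set is a pair of MOR103 genes of the proximal run, which differ at 10 of 60 positions.
Olfr1348, chr7:6502095-6502154, minus strand: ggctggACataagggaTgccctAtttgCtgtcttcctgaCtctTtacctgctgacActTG
Olfr1347, chr7:6488722-6488781, minus strand: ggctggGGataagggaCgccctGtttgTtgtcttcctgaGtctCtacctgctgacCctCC
Since these stretches were picked for their differences, other parts of the coding sequences can be more alike. The last 417 coding bases of Olfr1348 and Olfr1347 are identical, and the part before them has 83.5% identity. The longest identical stretch was 164 bases between Olfr533 and Olfr530, 92 bases between Olfr533 and Olfr536, and 58 bases between Olfr297 and Olfr295.

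The members as a whole had higher values than the other receptor genes. Their median FPKM was 3.83 (interquartile range 1.24 to 6.51), against 1.03 (0.369 to 2.86) over the other 1066 entries. On the log2(FPKM + 0.1) scale, which understates differences between low genes, the medians differed by 1.79. Against the other 939 class II entries, whose median was 1.2, the difference was 1.60. Of the 46 members, 37 (80.4%) had an FPKM of 1 or more, and 52.5% of all entries of the table did. Values of at least 5 belonged to 18 members (39.1%), against 14.3% of the table. Values of at least 10 belonged to 10 members (21.7%), against 5.40% of the table. These 10 genes are also the only members among the 50 highest entries. Values below 0.1 belonged to 4 members, or 8.70%, against 8.63% of the table. The members held 10.6% of the summed Olfr FPKM with 4.14% of the entries. None of them was listed at 0.

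**Figure D1:**
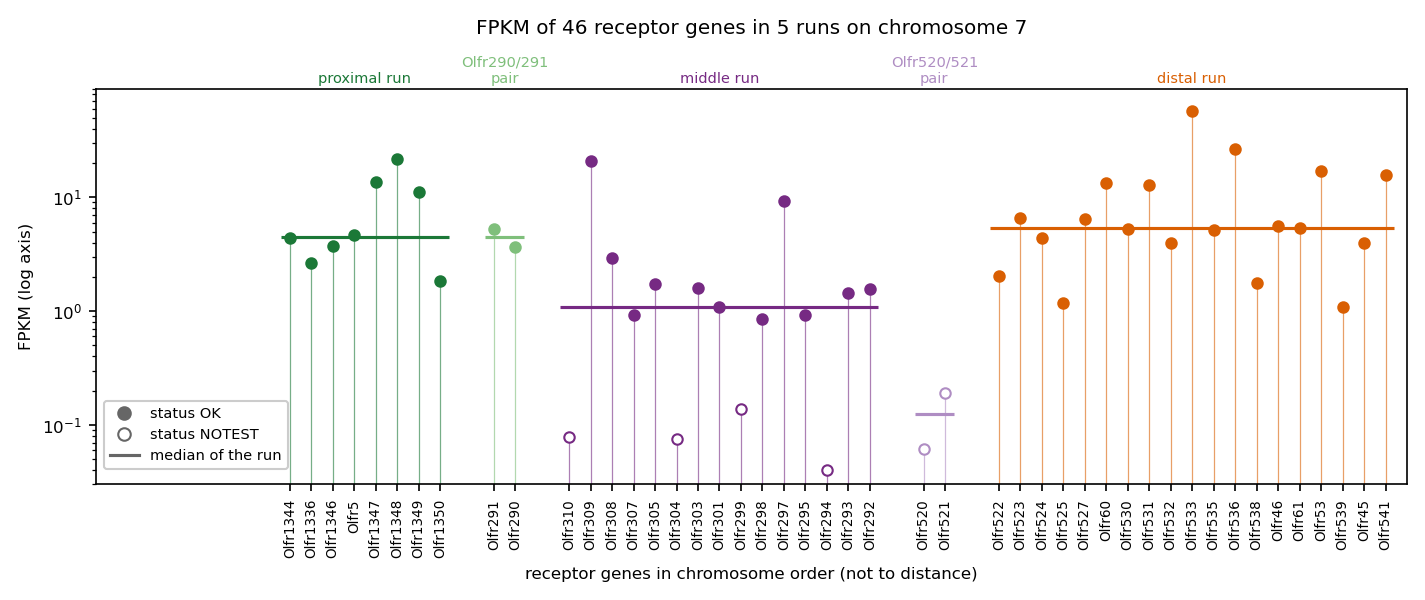
FPKM of the 46 genes on a log axis, in chromosome order within each run, with the median of each run as a horizontal line and open circles for entries of status NOTEST. The distal run has no value below 1.09, and the middle run spans 0.0403 to 20.9.

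This difference was not shared by all 5 runs. The median FPKM was 4.52 in the proximal run, 4.49 in the Olfr291 and Olfr290 pair, 1.09 in the middle run, 0.126 in the Olfr520 and Olfr521 pair and 5.35 in the distal run. The middle run thus lay close to the median of the other 1066 entries, at a difference of 0.07 on the log2 scale, and the Olfr520 and Olfr521 pair lay 2.39 below it. The distal run differed from the other entries by 2.27 and the proximal run by 2.03. All 19 genes of the distal run, all 8 of the proximal run and both genes of the Olfr291 and Olfr290 pair had an FPKM of 1 or more. In the middle run 8 of 15 did (53.3%), which is near the share of the whole table, and in the Olfr520 and Olfr521 pair neither did.

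Of the 26 runs of at least 8 genes in the table, a minimum that was chosen after the values were seen, the distal and proximal runs took places 2 and 3 by their medians. A run of 8 genes on chromosome 16 from 19.3 to 19.6 Mb was higher, with a median of 7.92. The middle run was in place 18 of the 26. The 64 class II genes that lie between the limits on the same chromosome had a median FPKM of 0.747 (interquartile range 0.245 to 2.21). The distal run differed from them by 2.69 on the log2(FPKM + 0.1) scale.

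**Figure D2:**
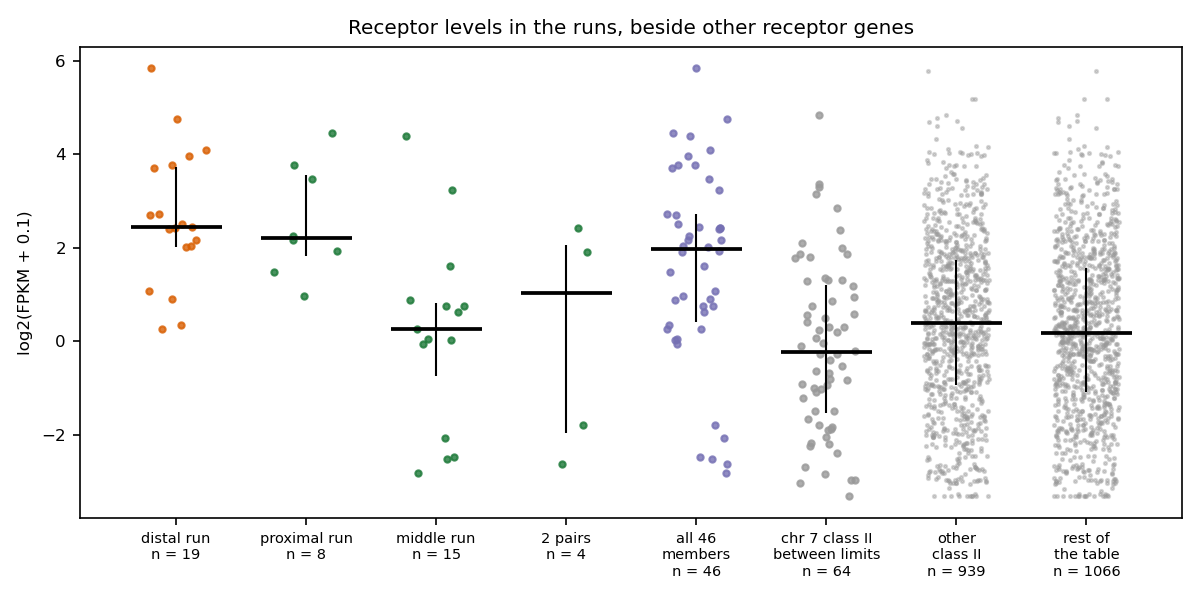
Level of each receptor gene as log2(FPKM + 0.1), in the runs, in all 46 members and in other receptor genes of the table, with the median as a horizontal line, the interquartile range as a vertical line and both pairs drawn together. The medians of the distal and proximal runs lie above those of the middle run and of the 64 class II genes between the limits, and the single values overlap.

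The distal run held 62.7% of the members' summed FPKM. Its highest gene was Olfr533 (chr7:147652102-147653064), at an FPKM of 57.2, the first of the 1112 entries. Olfr536 (chr7:147686752-147693217) followed at 26.8, which is place 7 of the table. Olfr533 alone made up 29.3% of the summed FPKM of the run. The run was not high through this pair alone, since the median of its other 17 genes was 5.30 and all of them were at or above 1.09. The run as a whole had a median of 5.35, against 1.73 in the other 27 members, a difference of 1.57 on the log2(FPKM + 0.1) scale. The difference was 0.98 without entries below an FPKM of 0.1 and 0.84 without entries of status NOTEST (a mark in the table that Cuffdiff gives where it made no test), all of which lie outside the distal run among the members.

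The next genes of the distal run were Olfr53 at an FPKM of 16.9, Olfr541 at 15.6, Olfr60 at 13.5 and Olfr531 at 12.9. A middle group of 6 genes lay between 5 and 10, with Olfr523 at 6.54 and Olfr527 at 6.42 at its top. Olfr46, Olfr61, Olfr530 and Olfr535 in this group were within 5.16 to 5.57. Olfr524 had 4.42, Olfr532 had 4.0 and Olfr45 had 3.94. The lowest were Olfr522 at 2.02, Olfr538 at 1.77, Olfr525 at 1.17 and Olfr539 at 1.09. Olfr533 was thus 52.3 times as high as Olfr539, which lies in the same run. Some high and low genes lay side by side along the chromosome. Of the 18 pairs of neighbours in the run, 6 (33.3%) differed at least 4 times. The share was 47.8% in the other members and 38.6% elsewhere in the table, so such contrasts were not more common here. Olfr533 lies 47.4 kb beyond Olfr532 and 26.4 kb before Olfr535, and it was 14.3 times as high as the first and 11.1 times as high as the second. Olfr536 was 15.2 times as high as Olfr538, its next neighbour. Olfr53 was 15.4 times as high as Olfr539, 20.8 kb away.

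The proximal run ranged less widely from its lowest to its highest gene, over fewer genes. Its highest gene was Olfr1348 (chr7:6453997-6454935) at an FPKM of 21.9, place 12 of the table, followed by Olfr1347 at 13.5 and Olfr1349 at 11.1. These 3 genes are direct neighbours on the same strand. Olfr5 had 4.63, Olfr1344 had 4.41, Olfr1346 had 3.73 and Olfr1336 had 2.67. The lowest was Olfr1350 at 1.85. This gene lies 55.5 kb beyond Olfr1349. The highest value of the run was 11.8 times the lowest. The standard deviation of log2(FPKM + 0.1) was 1.21, against 1.46 in the distal run and 1.18 there without Olfr533 and Olfr536. Of the coding 50-mers (stretches of 50 bases) of Olfr1348 and Olfr1347, 51.7% and 51.8% occur in no other Olfr transcript, the lowest shares among the members. The split of reads between these genes is uncertain.

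The genes Olfr291 and Olfr290 had FPKM values of 5.30 and 3.68. They have 96.9% coding identity, the highest of any pair of members, and an identical stretch of 183 bases. About 65% of their coding 50-mers were unique (64.8% and 65.0%), so the division of reads between these genes is uncertain as well.

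The middle run held both high genes and genes near 0. Olfr309 (chr7:93454695-93455621) had an FPKM of 20.9, place 13 of the table, and made up 47.9% of the summed FPKM of the run. Olfr297 had 9.32 and Olfr308 had 2.94. Another 5 genes lay between 1 and 2, namely Olfr305 at 1.73, Olfr303 at 1.59, Olfr292 at 1.57, Olfr293 at 1.44 and Olfr301 at 1.09. Olfr307, Olfr295 and Olfr298 were just under 1, at 0.933, 0.915 and 0.853. The lowest 4 were Olfr299 at 0.138, Olfr310 at 0.0780, Olfr304 at 0.0747 and Olfr294 at 0.0403. These 4 have the status NOTEST, as do Olfr520 and Olfr521. The 6 NOTEST entries are 13.0% of the members, against 18.3% of the whole table. No member lay between the highest NOTEST value of 0.189 and the lowest OK value of 0.853.

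Olfr309 is 37.5 kb from Olfr310 and had a ratio of 267 to it, the widest between neighbours among the members. This ratio rests on the NOTEST value of 0.0780 for Olfr310. Of 41 pairs of neighbours within the runs, 17 (41.5%) differed at least 4 times, and 38.6% of 1022 such pairs elsewhere in the table did. Differences of this size between neighbours were thus about as common among the members as elsewhere in the table.

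Olfr520 and Olfr521 had FPKM values of 0.0620 and 0.189, near the bottom of the table, at places 1035 and 942. They are the only genes of MOR101 in the table and have 88.7% coding identity, with an identical stretch of 145 bases. Of their coding 50-mers 74.2% and 74.6% were unique, so the division of reads between them is uncertain too.

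Few of the receptor families cut across the runs. The members belong to 15 MOR groups, and 3 of these are found in more than 1 run. MOR103 has 5 genes in the proximal run and 2 in the distal run, with medians of 4.63 and 3.22. The other 10 genes of MOR103 in the table lie elsewhere and had a median of 5.90. MOR251 has Olfr309 in the middle run, at an FPKM of 20.9, and 4 genes in the distal run, with a median of 5.21. MOR104 has Olfr308 and Olfr303 in the middle run, with a median of 2.26, and Olfr523 in the distal run at 6.54. The other families lie in only 1 of the runs. Among these are MOR253, with 9 genes and a median of 5.35 in the distal run, and MOR219. The latter has 5 genes and a median of 0.853 in the middle run. Only 1 of the 5 MOR219 genes, Olfr305, reached an FPKM of 1. All 5 genes of MOR219, all 5 of MOR251 and all 3 of MOR252 and of MOR220 in the table are members.

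MOR252 had the highest values of all families with 3 or more members. Olfr533 had an FPKM of 57.2, Olfr536 had 26.8 and Olfr530 had 5.30, and together they made up 45.7% of the summed FPKM of the distal run. The MOR253 genes of the same run made up 35.2%, in 9 genes from 1.09 (Olfr539) to 16.9 (Olfr53).

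**Figure D3:**
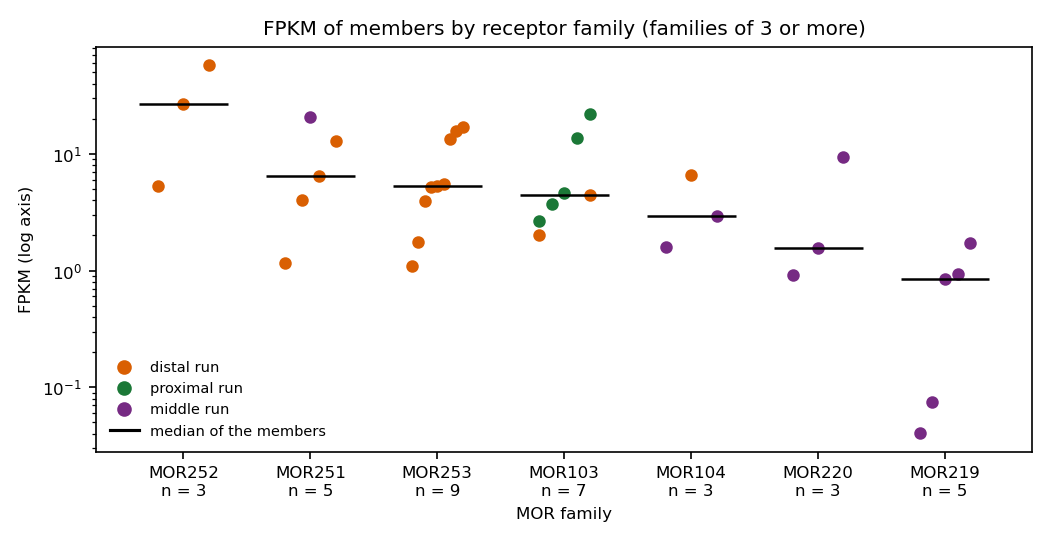
FPKM on a log axis of the members in each MOR family with 3 or more of them, coloured by run, with the median of the members as a line. MOR252 has the highest median, 26.8, and MOR219 the lowest, 0.853.

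The levels of close relatives ranged from nearly equal to widely different. For 38 of the 46 members the closest coding sequence in the whole table lay in the same run, for 4 it lay in another of the runs and for 4 outside them. For 24 members it was at least 90% identical. Olfr533 and Olfr530 have 91.7% coding identity and differed 10.8 times. Olfr530 and Olfr536 have 93.7% and differed 5.06 times, and Olfr533 and Olfr536 have 90.1% and differed 2.14 times. Olfr297 was 10.2 times as high as Olfr295, at 90.3% identity. Olfr298 and Olfr294, at 91.3% identity, had a ratio of 21.2, which rests on the NOTEST value of 0.0403 for Olfr294. On the log2(FPKM + 0.1) scale this pair differed by 2.76, less than Olfr297 and Olfr295 (3.21) or Olfr533 and Olfr530 (3.41). The smallest difference among pairs of at least 90% identity was that of Olfr53 and Olfr541, with 91.9% identity and a ratio of 1.08. Olfr527 and Olfr531, with 93.2% identity, differed 2.01 times. Ratios were also small for Olfr291 and Olfr290 (1.44), Olfr1348 and Olfr1347 (1.62) and Olfr292 and Olfr295 (1.72), at 96.9%, 90.6% and 91.7% identity.

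Among pairs of the same run, the median ratio of the higher to the lower value was 4.20 over 40 pairs of 40 to 60% identity. Above 60% it was lower, with no steady change as identity rose. It was 3.15 over 17 pairs of at least 90% identity, 3.21 over 56 pairs of 80 to 90% and 3.18 over 193 pairs of 60 to 80%. Pairs of different runs had a median ratio of 10.4 at 40 to 60% identity (374 pairs) and 3.19 at 60 to 80% (355 pairs). These pairs share genes and are not independent. Reads shared between close relatives move with identity too, and their part in these ratios was not tested. Only 75.5% of the coding 50-mers of Olfr533 and 76.9% of those of Olfr530 are unique among Olfr transcripts, and 84.1% of those of Olfr536. Over all members the median share was 91.4%, with 84.8% in the distal run and 94.4% in the other members. In the whole table it was 94.2%.

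**Figure D4:**
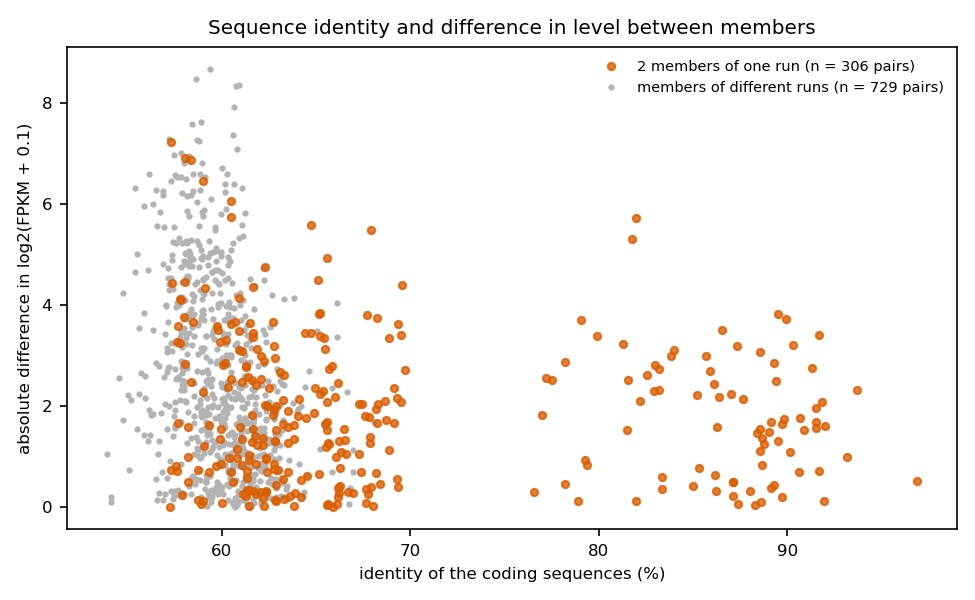
Absolute difference in log2(FPKM + 0.1) against coding identity for each pair of members, with pairs of the same run in orange and pairs of different runs in grey. The median difference of pairs of the same run is 1.60 at 90% identity or more, 1.67 at 80 to 90%, 1.58 at 60 to 80% and 1.98 at 40 to 60%.

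Annotated gene structure varied among the members as well. Exons were counted in the longest coding transcript of each member, and other transcripts of a gene may have more. The median FPKM was 1.05 for the 4 members with 1 annotated exon, 2.94 for 23 members with 2 exons, 4.18 for 14 with 3 and 21.9 for 5 with 4 or more. The 5 genes with 4 or more exons were Olfr533 at 57.2, Olfr536 at 26.8, Olfr1348 at 21.9, Olfr535 at 5.16 and Olfr293 at 1.44. Of the 4 genes with 1 exon, Olfr531 had 12.9 and Olfr522 had 2.02, both in the distal run, and Olfr304 and Olfr294 in the middle run had 0.0747 and 0.0403. Olfr304 and Olfr294 have no annotated untranslated region (UTR). Olfr531 has 4 annotated transcripts, and Olfr304 and Olfr294 have 1 each. Olfr531 is the highest of the 120 genes of the table with 1 exon counted in this way, whose median was 0.0891.

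Across genes, Spearman's rho between exon number and FPKM was 0.30 over the 46 members, 0.44 over the 27 members outside the distal run and 0.17 within the 19 genes of the distal run. Without entries below an FPKM of 0.1 it was 0.16 over the members. Pearson's r with log2(FPKM + 0.1) was 0.39, 0.49 and 0.31 in the same order. In the whole table rho was 0.38 over 1102 entries. In the distal run, genes with longer annotated 3′ UTRs had lower values, with rho at -0.51 and r at -0.51 over 19 genes. The 3′ UTRs of Olfr61, Olfr53 and Olfr541 are annotated at 160, 166 and 415 nt, and that of Olfr539, the lowest gene of the run, at 10332 nt. Not all genes followed this order. Olfr61 was at the median of the run, 5.35. Olfr538, at an FPKM of 1.77, has 706 nt, and Olfr536, at 26.8, has 2685 nt. Outside the distal run rho with 3′ UTR length was -0.01 over 25 members, and over 1021 entries of the table it was 0.09. With 5′ UTR length rho was 0.42 over 44 members. The number of annotated transcripts had a higher rho than exon number over the members (0.48), in the distal run (0.50) and in the whole table (0.41). Outside the distal run it was 0.42, against 0.44 for exon number. Transcript length had a rho of -0.54 in the distal run, 0.01 over all members and 0.30 in the whole table. The remaining feature, the share of unique 50-mers, had a rho of -0.25 over the members and -0.01 in the whole table. These 6 relations were computed in each of 4 groups. The genes share 1 set of values, neighbouring genes share sequence, and the annotated exons and UTRs depend on the transcripts behind the annotation, so no p-value is given.

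**Figure D5:**
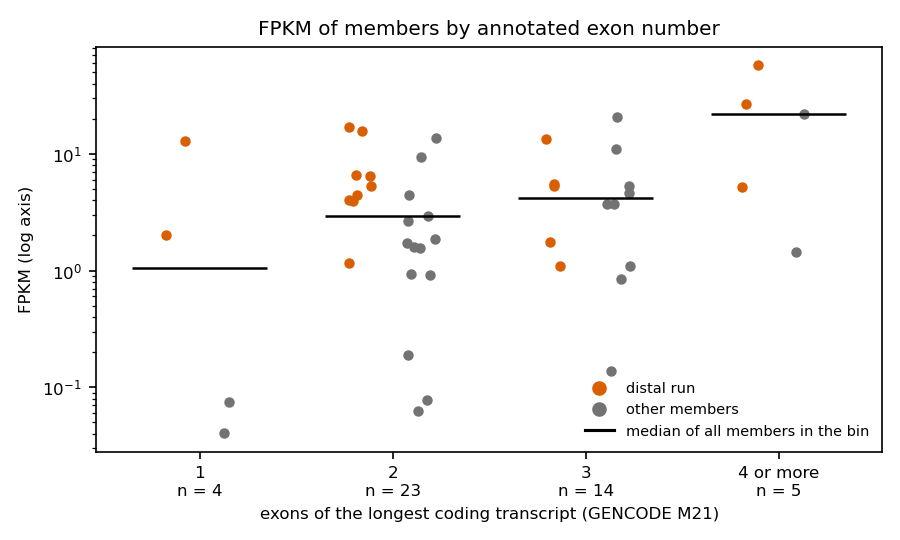
FPKM on a log axis of the 46 members by the number of exons of the longest coding transcript in GENCODE M21, with distal-run genes in orange, other members in grey and the median of each bin as a line. The 5 genes with 4 or more exons have a median of 21.9, and the 4 genes with 1 exon have a median of 1.05.

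The deposited gene models were not alike, which bears on values per kilobase. For 38 members the locus in the table is a single block of 915 to 1082 bp, about the length of the coding sequence, and for 8 it is 1770 bp or longer. The 8 long loci had a median FPKM of 4.96 and the 38 short ones had 3.31. The longest are those of Olfr46 (9785 bp), Olfr301 (9451 bp) and Olfr292 (7044 bp). Olfr533 is a single block of 963 bp and Olfr536 a locus of 6466 bp. The distal run was above the other members among short loci alone, at a difference of 1.60 on the log2(FPKM + 0.1) scale.

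One or more MOR names of 7 members end in P, the mark of a pseudogene in that naming. They are Olfr533, Olfr309, Olfr524, Olfr538, Olfr301, Olfr310 and Olfr304, with FPKM values from 0.0747 to 57.2 and a median of 1.77. All 7 have an open reading frame in GENCODE M21 and are not typed as pseudogenes in RefSeq. The highest genes of the distal and of the middle run, Olfr533 and Olfr309, are thus among them. Such a name is carried by 110 entries of the table, with a median of 1.11, and 105 of them have an open reading frame.

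RefSeq gives a start of transcription apart from the coding start for few of these genes. RefSeq promoter windows (GRCm38.p6) matched 39 members. In 33 the RefSeq start lies within 300 bases of the coding start, so the window before it may not cover the promoter. GENCODE M21 places a start more than 1 kb further upstream for 32 of the members whose window was not used. For 6 members, Olfr536, Olfr53, Olfr46, Olfr5, Olfr292 and Olfr301, the RefSeq start is separated from the coding sequence by over 1 kb and lies within 200 bases of a GENCODE start. For these, the bases before the first annotated start were searched for 2 motifs known from receptor promoters, on both strands. They are the Olf1/EBF motif, written TCCC, then any 2 bases, then GGGA, and a homeodomain motif, written TAATNA. The sequences of 5 of these windows are shown, namely the highest gene with such a window in each of 3 runs and those with a match. They run 5′ to 3′ and end at the first annotated start, and capitals mark homeodomain matches.
Olfr536, chr7:140507397-140507568, minus strand: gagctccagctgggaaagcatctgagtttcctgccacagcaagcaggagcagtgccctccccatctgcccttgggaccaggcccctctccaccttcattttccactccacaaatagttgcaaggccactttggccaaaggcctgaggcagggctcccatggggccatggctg
Olfr53, chr7:140646202-140646451, plus strand: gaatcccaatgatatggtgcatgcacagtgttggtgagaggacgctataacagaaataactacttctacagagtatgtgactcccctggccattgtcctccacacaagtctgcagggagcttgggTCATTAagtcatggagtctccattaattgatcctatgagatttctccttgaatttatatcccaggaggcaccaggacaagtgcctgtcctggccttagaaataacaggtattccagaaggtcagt
Olfr5, chr7:6486942-6487063, minus strand: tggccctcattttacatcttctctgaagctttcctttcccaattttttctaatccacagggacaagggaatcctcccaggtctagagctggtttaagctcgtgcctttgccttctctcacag
Olfr292, chr7:86688091-86688329, plus strand: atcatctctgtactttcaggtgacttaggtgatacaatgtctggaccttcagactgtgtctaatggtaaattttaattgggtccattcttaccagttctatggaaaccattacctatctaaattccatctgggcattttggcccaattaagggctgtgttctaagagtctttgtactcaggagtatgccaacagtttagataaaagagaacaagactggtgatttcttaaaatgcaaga
Olfr301, chr7:86403599-86403845, plus strand: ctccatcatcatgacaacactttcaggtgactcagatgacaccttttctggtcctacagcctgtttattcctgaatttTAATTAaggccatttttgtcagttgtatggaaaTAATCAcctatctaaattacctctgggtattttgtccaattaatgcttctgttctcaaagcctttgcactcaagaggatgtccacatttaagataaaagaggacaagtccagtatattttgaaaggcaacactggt
The homeodomain letters occurred in 2 of the 6 windows, with 1 match for Olfr53 and 2 for Olfr301, and in 24.3% of 32851 windows of 250 bases in RefSeq. The Olf1/EBF letters occurred in none of the 6 and in 0.779% of all windows. The member windows are 122 to 250 bases long, so these shares are not matched in length. The windows of Olfr292 and Olfr301, which lie in the same run, were 73.6% identical, with FPKM values of 1.57 and 1.09. Those of Olfr53 and Olfr46, both MOR253, were 57.7% identical, with values of 16.9 and 5.57. Olfr536 showed no more than 51.0% identity with any of the other 5 windows.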

How the data were processed

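Per the labels' protocols, Trizol was used for the RNA and TruSeq for the libraries. The authors deposited 1 table of FPKM values for receptor genes only. TopHat2, Bowtie2 and Cuffdiff and the build mm9 are named in the submitters' processing notes, without versions. No source used here names the annotation or says how reads with several matches were counted.

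The members and lists were chosen with earlier results of these data known. The deposited starts are 0-based and are printed 1-based. Neighbouring Olfr loci under 1 Mb apart were joined into runs. Differences are between medians of log2(FPKM + 0.1), with no test across genes. Receptor families come from MOR synonyms in RefSeq, and families 1 to 42 are class I. Exons, untranslated regions and coding sequences are those of GENCODE M21 (GRCm38), matched by symbol for all 46 members. Identity was computed by global alignment with edlib 1.3.9.post1 in Python 3.11.15. Coding nucleotides took the place of the planned protein comparison, and no protein is printed. The planned rule named the 3 highest and 2 lowest genes of each run, every gene of the pairs, those at the limits, the closest pairs and the extremes of each family, and allowed every member a value. Alternatives varied the pseudocount, the thresholds, the run gap and the entries kept. The scripts were tested on simulated data.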

Additional observations from a re-analysis of the deposited data

How the results depend on the processing

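Of 51 alternative values for 12 results, 45 moved little, 6 moved more and 0 changed direction. For medians, counts and shares, little means a change of less than 1.5 times. These cannot change direction, so only the differences and rho could. No member is typed as a pseudogene, so leaving out pseudogenes could not move the members' medians or count. Leaving out NOTEST entries could not move the distal run, the proximal run or the Olfr291 and Olfr290 pair, which have none. Among the values counted as little moved, the members' share of the summed FPKM was 7.25% without the highest gene of each run, against 10.6%. The members' median was 2.80 with at least 80% unique 50-mers, against 3.83. The difference of the members from the other entries was between 1.25 (pseudocount 1) and 1.88 (pseudocount 0.01). It was 1.39 with at least 80% unique 50-mers. The difference of the distal run from the other members was 0.98 without entries below an FPKM of 0.1 and 0.84 without NOTEST entries, which remove low genes of the other runs only. The count of 37 members was 18 at a threshold of 5. The median of the Olfr520 and Olfr521 pair was 0.062 without its higher gene, which leaves 1 gene. Spearman's rho with exon number was 0.16 without entries below 0.1 and 0.44 outside the distal run, and the cause was not tested. Restriction to single-block loci was chosen after seeing the data and gave 1.65 for the members and 1.60 for the distal run.

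No paired analysis was possible because a single FPKM is listed per gene for the 1 group of samples, and no library was left out for the same reason. Without NOTEST entries the Olfr520 and Olfr521 pair gave no value, and with at least 80% unique 50-mers neither pair did. Depth is unknown, so no detection limit is given for low values.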
